A study of Sus scrofa with 6 samples.

Results

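The genes described here encode chaperones of the endoplasmic reticulum (ER) and factors of the stress response that controls them. The 10 genes were HSPA5, HSP90B1, CALR, PDIA3, PDIA4, PDIA6, XBP1, ATF4, DDIT3 and ASNS. They are 10 of the 6765 genes that the platform annotation names on the array. Every probe set annotated to 1 of them was taken, which gave 16 of the 23999 probe sets other than controls. Of the 16, 15 were bright enough to be tested, and each gene had at least 1 tested probe set. The samples were nuclear transfer embryos of the pig, made by putting the nucleus of a cultured cell into an oocyte, and the cultured cells that supplied those nuclei. All embryos carried nuclei of the same donor cells, fibroblasts established from 1 adult Meishan pig, in oocytes of slaughterhouse origin. Embryos were injected with an antibody against DJ-1, a redox-sensitive protein (2 arrays), with control IgG (2 arrays), or were not injected (1 array). They were collected 28 h after transfer, when many had just cleaved, and each array carried RNA of a pool of 23 to 26 embryos. The donor cells were not injected and gave 1 array. The experiment was run in 2 trials, the first with all 4 groups and the second with anti-DJ1 and IgG embryos only, prepared from separate embryos.

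The ER is where secreted and membrane proteins are folded. HSPA5 (BiP) and HSP90B1 are its main Hsp70 and Hsp90 chaperones, CALR and PDIA3 fold glycoproteins together, and the PDIA enzymes form and exchange disulfide bonds. When unfolded proteins build up, 3 sensors in the ER membrane respond: IRE1 splices the mRNA of XBP1, ATF6 is cut to release a transcription factor, and PERK phosphorylates eIF2α, which favours translation of the ATF4 mRNA. XBP1 and ATF6 raise transcription of the chaperones. ATF4 raises DDIT3, which encodes the pro-apoptotic factor CHOP, and genes of amino acid supply such as ASNS, the asparagine synthetase. Oocytes and early embryos hold stored maternal mRNA, so a level in a just-cleaved embryo can come from stored as well as new transcripts.

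Signals are MAS5 values, on a linear scale and with a trimmed mean between 500.1 and 500.2 on every array. A Tag control matches no pig transcript, and the highest Tag control of an array, between 21.4 and 47.0, served as the level of background. The ratio of the 3′ to the 5′ control probe set of EF1A, a measure of how short the labelled RNA was, came to 23.9 to 30.0 on the 3 embryo arrays of trial 1, 8.20 and 9.34 on those of trial 2, and 4.23 on the donor cell array. The marker sums set the 2 kinds of sample apart, though single markers did not all follow their list. Summed signals of 11 fibroblast markers were 100206 on the donor cell array and 2918 to 3640 on embryo arrays. VIM (31965), SPARC (29990) and FN1 (24455) gave most of the donor cell sum. COL1A2 and COL3A1 were at 459 and 584 in donor cells, against at most 355 and 406 in embryos. DCN and LUM were not above the Tag controls in donor cells. Summed signals of 8 oocyte and embryo markers were 219.7 in donor cells and 69637 to 112343 in embryos. Those of 9 cumulus and granulosa cell markers were 10763 in donor cells, of which KRT8 gave 9907, and 1630 to 2218 in embryos. STAR, FSHR, PTGS2 and AMH did not exceed the Tag controls on any embryo array, and CYP19A1 exceeded them on 2. INHA, INHBA, FST and KRT8 exceeded them on all 5. INHBA was at 975 to 1495 and FST at 323 to 499.7 in embryos, against 739 and 22.8 in donor cells. Summed signals of 8 epithelial, endothelial and blood cell markers were 8640 in donor cells and 8818 to 11147 in embryos. Of these 8, KRT19 was at 3598 in donor cells and did not exceed the Tag controls in embryos. EPCAM (3128) and CDH1 (749) also exceeded the Tag controls in donor cells.

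HSPA5 had a signal of 2070.2 and 2121 in the anti-DJ1 embryos of trials 1 and 2, 2180.0 and 2055 in the IgG embryos, 2011 in the non-injected embryos and 16863 in the donor cells. The 5 embryo arrays lay within 1.08-fold of each other, on the log2 scale of the tests, and only 0.160% of all tested probe sets had a smaller range over these arrays. The donor cell array stood far above them all. The brightest HSP90B1 probe set had a signal of 10126 and 8371 in anti-DJ1 embryos, 9668 and 9026 in IgG embryos, 10905 in the non-injected pool and 7142 in donor cells. Its donor cell value was the lowest of the 6. The other HSP90B1 probe set ran the opposite way, at 1593 and 1856 in anti-DJ1 embryos, 1597 and 1355 in IgG embryos, 1363 in embryos without injection and 4202 in donor cells, so the direction for HSP90B1 between embryos and donor cells was uncertain. CALR, calreticulin, had a signal of 677 and 327 in anti-DJ1 embryos, 555 and 424 in IgG embryos, 860.1 in the non-injected pool and 568 in donor cells. The donor cell value of CALR lay inside the range of the embryos.

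Among the disulfide isomerases, the brightest of the 3 PDIA3 probe sets had a signal of 1485 and 2139 in the anti-DJ1 embryos of trials 1 and 2, 1899.7 and 2402 in IgG embryos, 1435 in embryos without injection and 7713 in donor cells. PDIA4 had 6993 and 6754 in anti-DJ1 embryos, 6449 and 5900.4 in IgG embryos, 7472 in the non-injected pool and 3925 in donor cells. For PDIA6 the values were 7878 and 10847 in anti-DJ1 embryos, 7661 and 11546 in IgG embryos, 7633 in embryos without injection and 5809 in donor cells. Donor cells were thus highest for PDIA3 and lowest for PDIA4 and PDIA6, with no overlap with the embryo arrays in each case. For PDIA6 the 2 trial 2 arrays stood above the 3 embryo arrays of trial 1, whatever the injection. The dimmer probe sets of PDIA3 and PDIA4 gave other patterns. A second PDIA3 probe set was at 153 and 232 in anti-DJ1, 186 and 270.3 in IgG, 332 in the non-injected pool and 292 in donor cells, so donor cells lay among the embryos. A second PDIA4 probe set varied more than any other member among embryos, at 126 and 415 in anti-DJ1, 127 and 278 in IgG and 49.3 in non-injected embryos, with 53.7 in donor cells. The remaining PDIA4 probe set lay between 61.9 and 90.2 in embryos and at 38.0 in donor cells. The remaining PDIA3 probe set did not exceed the Tag controls on any embryo array, was at 38.3 in donor cells and was not tested.

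The transcription factors and ASNS differed in which samples stood apart. XBP1 had a signal of 79.3 and 127 in anti-DJ1 embryos, 69.1 and 50.4 in IgG embryos, 36.1 in embryos without injection and 3909.9 in donor cells. Both anti-DJ1 values were above both IgG values, and the non-injected value did not exceed the highest Tag control of its array, 47.0, so it is only an upper limit. ATF4 was at 780.3 and 1699 in anti-DJ1 embryos, 744 and 1818 in IgG embryos, 814 in the non-injected pool and 2363 in donor cells, so the embryos fell into 1 level per trial. Its dimmer probe set went the other way between trials in the injected embryos, at 123 and 46.0 in anti-DJ1, 139 and 59.4 in IgG and 60.2 in non-injected embryos, with 472 in donor cells. DDIT3 had 159.9 and 232 in anti-DJ1 embryos, 155 and 257 in IgG embryos, 149 in embryos without injection and 153 in donor cells, which left donor cells inside the embryo range. ASNS was at 2283 and 2087 in anti-DJ1 embryos, 2369.6 and 2169.6 in IgG embryos, 1434 in the non-injected pool and 5025 in donor cells. The 4 injected arrays lay above the non-injected one and below the donor cells, with no overlap.

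**Figure D1:**
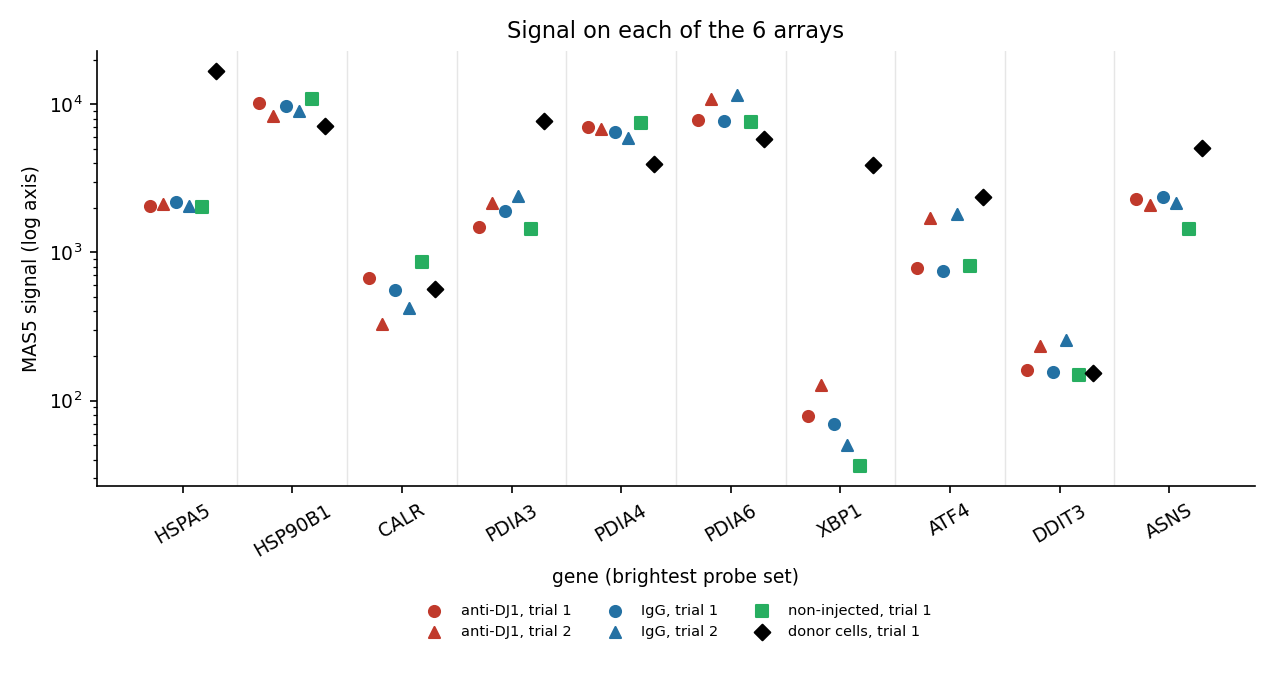
MAS5 signal (log axis) of the brightest probe set of each of the 10 genes on each of the 6 arrays; each point is 1 array, and its colour and shape give the group and trial. HSPA5 lies near 2088 on all 5 embryo arrays and at 16863 in donor cells, while ATF4 and PDIA6 lie higher on both trial 2 arrays than on the trial 1 embryo arrays.

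The study's main comparison asks what injecting the anti-DJ1 antibody changes relative to IgG. No member passed the test between these embryos. The mean HSPA5 signal was 2118 ± 88.1 (SD, n = 2) after IgG and 2095 ± 35.7 (SD, n = 2) after anti-DJ1, and the groups differed by -0.01 ± 0.12 on the log2 scale (SE, limma, adjusted p = 0.994). The interval of that difference ran from -0.27 to 0.24. HSP90B1 (-0.02 ± 0.10), PDIA6 (-0.02 ± 0.10), ATF4 (-0.01 ± 0.14), CALR (-0.04 ± 0.19), DDIT3 (-0.05 ± 0.24) and ASNS (-0.05 ± 0.12) also lay near 0, with adjusted p-values from 0.984 to 0.995. In this comparison 0 of 15 member probe sets and 0% of the 14399 probe sets tested passed a Benjamini-Hochberg adjusted p of 0.05 in limma. At an unadjusted p under 0.05 there were 1 of the 15 and 838 of the 14399.

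The member with that unadjusted p was XBP1. Its mean signal was 59.8 ± 13.2 (SD, n = 2) after IgG and 103 ± 33.9 (SD, n = 2) after anti-DJ1, which differ by 0.72 ± 0.31 on the log2 scale (SE, limma, adjusted p = 0.853). The difference was 0.19 in trial 1 and 1.26 in trial 2, so most of it came from trial 2. PDIA3 went the other way, with a log2 difference of -0.26 ± 0.12 (limma, adjusted p = 0.856), being -0.35 in trial 1 and -0.17 in trial 2, and its second probe set gave -0.24 ± 0.21. PDIA4 differed by 0.16 ± 0.10 (limma, adjusted p = 0.927), by 0.12 and 0.19 in the 2 trials. For the brightest probe sets of the 10 genes the 95% confidence interval reached from 1.17-fold (PDIA6) to 1.61-fold (XBP1) to either side, against a median of 1.42-fold over all probe sets tested. Differences smaller than its reach could not be told from 0 with these arrays. The intervals are not adjusted for the number of tests, so larger differences could also go uncalled, as that of XBP1 did. Without the block for the trial, the ATF4 difference ran from -0.66 to 0.63 as each array was left out in turn.

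Setting injected against non-injected embryos asks what the injection itself goes with. ASNS had the lowest adjusted p of the 15 member probe sets in both comparisons. Its signal was 2270 ± 141 (SD, n = 2) in IgG, 2185 ± 138 (n = 2) in anti-DJ1 and 1434 in non-injected embryos. The log2 difference was 0.72 ± 0.16 for IgG (SE, limma, adjusted p = 0.0501) and 0.67 ± 0.16 for anti-DJ1 (limma, adjusted p = 0.0542), 1.65-fold and 1.59-fold higher than in the non-injected embryos. Neither passed the threshold. With pseudocounts at the 25th percentile of signals, with arrays set to a common 75th percentile and with the tests limited to the upper 40% of probe sets, ASNS passed in both. With no trial block or no mean-variance trend, 0 of the 14399 probe sets passed in either comparison, and with any injected array left out 0 for IgG and 0 to 1 for anti-DJ1, ASNS not among them. Both comparisons share the single non-injected array, the first also shares the IgG arrays and the second the anti-DJ1 arrays with the comparison above, and the fit assumes that the single array varies like the replicated ones.

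For IgG against non-injected embryos, 0 of 15 member probe sets passed, beside 1.26% of all probe sets tested (182 of 14399). For anti-DJ1 against non-injected embryos, 0 of 15 passed, beside 1.92% (276 of 14399). At an unadjusted p under 0.05 there were 5 of the 15 members in each comparison (33.3%), beside 2493 (17.3%) and 2663 (18.5%) of all 14399. The 5 were ASNS and 3 dimmer probe sets in both, with PDIA3 in the first and XBP1 in the second. By brightest probe set there were 2 of the 10 genes in each comparison (20%), near the share of all probe sets. The second PDIA4 probe set differed by 1.14 ± 0.38 (IgG, adjusted p = 0.146) and 1.42 ± 0.38 (anti-DJ1, adjusted p = 0.075), and the second PDIA3 probe set by -0.84 ± 0.28 (adjusted p = 0.154) and -1.08 ± 0.28 (adjusted p = 0.0703). The dimmer ATF4 probe set differed by 1.19 ± 0.41 (adjusted p = 0.156) and 0.93 ± 0.41 (adjusted p = 0.245). None of the 3 went the way of its gene's brightest probe set, which gave -0.23 ± 0.14 and -0.08 ± 0.14 for PDIA4, 0.36 ± 0.16 and 0.10 ± 0.16 for PDIA3, and -0.09 ± 0.18 and -0.10 ± 0.18 for ATF4. XBP1 was at least 1.26-fold higher in IgG and at least 2.14-fold higher in anti-DJ1 than in non-injected embryos, taking the highest Tag control in place of the non-injected signal, and the fitted differences gave an adjusted p of 0.508 and 0.121. CALR differed by -0.47 ± 0.25 and -0.51 ± 0.25 (adjusted p = 0.377 and 0.313). HSPA5 differed by 0.09 ± 0.15 and 0.07 ± 0.15, with an adjusted p of 0.828 and 0.851. With that same limit to the upper 40%, the second PDIA4 probe set passed beside ASNS for IgG embryos, 2 of 13 members, where 7.56% of all probe sets then tested passed (726 of 9600). For anti-DJ1 embryos XBP1 and the second PDIA3 probe set passed as well, 4 of 13, where 9.15% of all passed (878 of 9600).

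**Figure D2:**
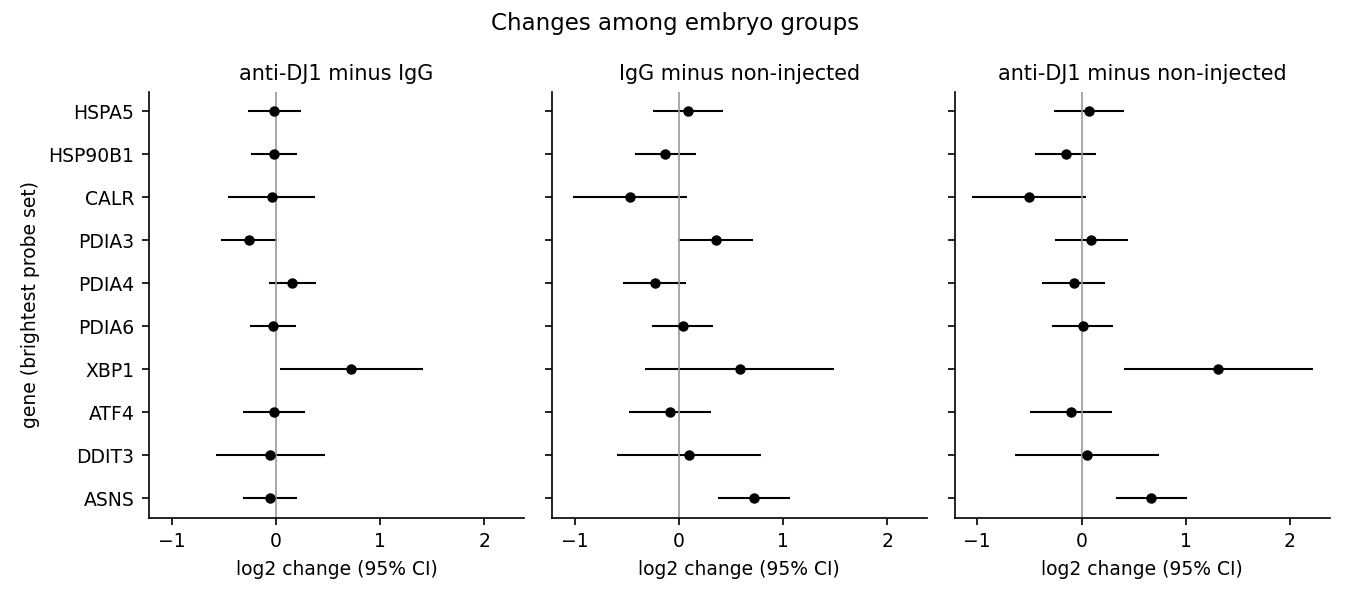
Log2 difference with its 95% confidence interval (limma, all 6 arrays with trial as a block) for the brightest probe set of each gene, in the 3 comparisons between embryo groups. Most intervals include 0; the ASNS differences from non-injected embryos (0.72 and 0.67) and the XBP1 differences (0.72 from IgG and 1.31 from non-injected embryos) lie to the right of it, as does PDIA3 in IgG against non-injected embryos (0.36, interval 0.0036 to 0.71), and none passed the adjusted threshold.

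Comparing embryos with donor cells asks how the transferred embryos, 28 h on, differ from the cells that gave their nuclei. With trial in the fit, the differences from donor cells rest on the embryo arrays of trial 1. The trial 2 arrays added only to the estimate of spread. HSPA5, PDIA3, XBP1, ATF4 and ASNS were lower in embryos, PDIA4 was higher, and CALR and DDIT3 did not pass. For PDIA3 this holds for the brightest probe set, and its second probe set did not pass. HSPA5 was 8.07-fold lower, a log2 difference of -3.01 ± 0.13 (SE, limma, adjusted p = 8.8e-10). Its signal was 2088 ± 64.8 over the embryo arrays of both trials (SD, n = 5) and 16863 in donor cells. XBP1 differed most, by -5.95 ± 0.36 (limma, adjusted p = 1.55e-08), and PDIA3 by -2.27 ± 0.14 (adjusted p = 1.85e-08). The brightest ATF4 probe set differed by -1.60 ± 0.16 (limma, adjusted p = 1.45e-06) and the other by -2.17 ± 0.35 (adjusted p = 0.000126), so both probe sets of this gene passed in 1 direction. ASNS differed by -1.34 ± 0.14 (limma, adjusted p = 1.95e-06). In bulk RNA, fewer cells of a type and less RNA per cell cannot be told apart, and every array was scaled to the same mean.

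The higher calls were smaller. PDIA4 differed by 0.83 ± 0.12 (limma, adjusted p = 4.73e-05), and its other 2 probe sets by 0.74 ± 0.33 and 0.97 ± 0.47, which did not pass (adjusted p = 0.0613 and 0.0794). PDIA6 differed by 0.41 ± 0.12 (limma, adjusted p = 0.00704). HSP90B1 differed by 0.52 ± 0.12 (adjusted p = 0.00163) with its brightest probe set and by -1.47 ± 0.16 (adjusted p = 4.18e-06) with the other, and both passed. CALR differed by 0.27 ± 0.22 (limma, adjusted p = 0.286), DDIT3 by 0.02 ± 0.28 (adjusted p = 0.955) and the second PDIA3 probe set by -0.45 ± 0.25 (adjusted p = 0.116). Over all 5 embryo arrays the mean log2 signal of CALR was 9.08, slightly below the 9.16 of donor cells. For the brightest ATF4 probe set these means were 10.08 and 11.21, and for PDIA6 13.13 and 12.51. In all, 10 of 15 member probe sets passed, 3 higher and 7 lower in embryos, beside 72.9% of all probe sets tested (10501 of 14399, 5248 higher and 5253 lower), so the members' share of 66.7% was near that of the array. By brightest probe set, 8 of 10 genes passed, 3 higher and 5 lower. The median difference was -0.45 over the 15 member probe sets and -0.02 over all tested. Donor cells were represented by 1 array, whose EF1A ratio of 4.23 was the lowest of the 6. Those of the trial 1 embryo arrays were the highest, 23.9 to 30.0. The summed fibroblast marker signal of the donor cell array was the highest, and the part of either in these differences was not tested.

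How arrays are scaled moved the direction of the small differences, not that of the large ones. As deposited, the median of all tested probe sets was -0.02 between embryos and donor cells. It was 0.42 after quantile normalization and 0.59 with a common 75th percentile, with 6254 higher and 4222 lower calls, and 6707 and 3911. HSPA5 was at -3.16 and -2.38 under these scalings, XBP1 at -5.99 and -5.33, PDIA3 at -2.52 and -1.64, ATF4 at -1.55 and -0.96 and ASNS at -1.62 and -0.71, all passing. PDIA4 kept its direction and call, at 0.49 and 1.46, although its quantile value was only 0.07 above the median of all probe sets. The brightest HSP90B1 probe set fell to 0.04 (adjusted p = 0.729) after quantile normalization, 0.37 below that median, and PDIA6 to -0.04 (adjusted p = 0.777). CALR passed as higher in embryos under both (0.75 and 0.90), and DDIT3 under quantile normalization (0.77, adjusted p = 0.0236) but not with the common percentile (0.63, adjusted p = 0.0564). Member calls split as 5 higher and 7 lower under quantile normalization, and 6 and 7 with the common percentile.

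**Figure D3:**
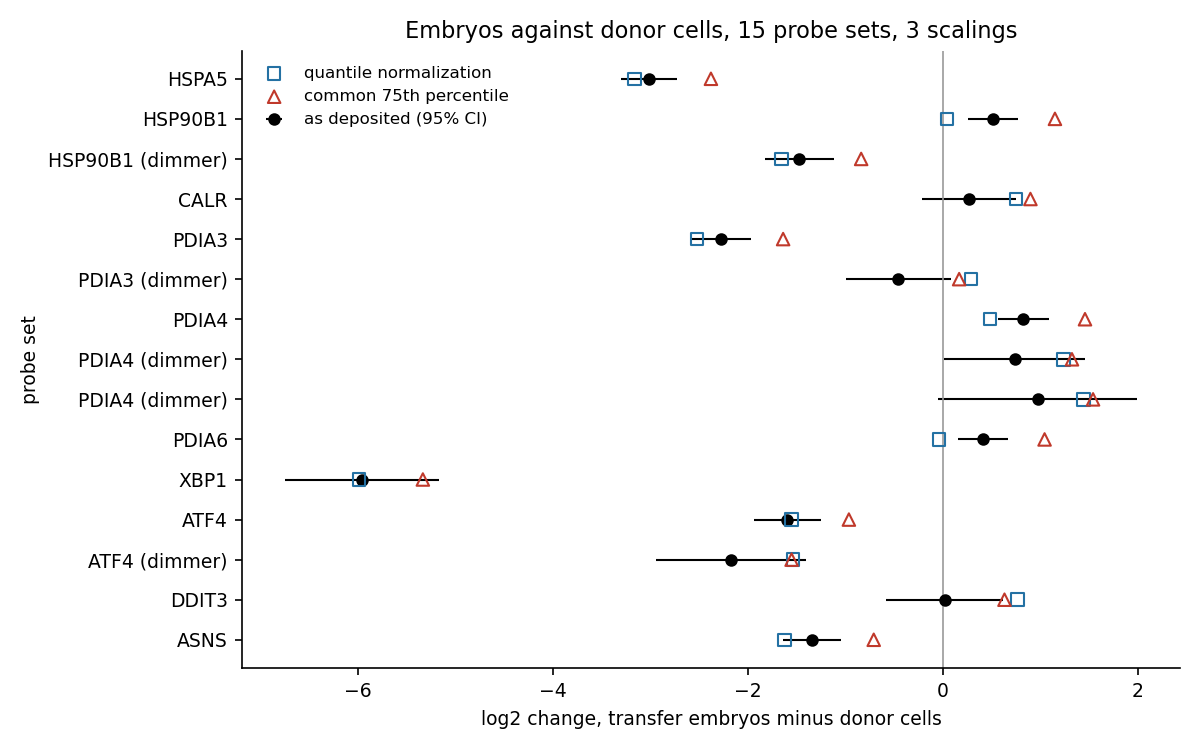
Log2 difference between transfer embryos and donor cells for the 15 tested member probe sets, as deposited (black, 95% confidence interval), after quantile normalization (blue squares) and with arrays set to a common 75th percentile (red triangles). HSPA5, XBP1, ATF4, ASNS and the brightest PDIA3 probe set lie below 0 under all 3. The dimmer PDIA3 probe set lies below 0 as deposited and above it under both other scalings. The 2 HSP90B1 probe sets lie on opposite sides as deposited, and PDIA6 moves from 0.41 to -0.04.

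Most calls for higher members also rested on the trial block. Without it, 7 member probe sets passed between embryos and donor cells, 1 higher (PDIA4, brightest probe set) and 6 lower, beside 53.0% of all probe sets tested (7630). Without a mean-variance trend 8 passed, 1 higher and 7 lower, beside 68.5% (9860). Leaving out any 1 of the 4 injected arrays, in fits with no block, left 6 or 7 calls: 6 without anti-DJ1 replicate 1 or IgG replicate 1, and 7 without replicate 2 of either, all of them lower in embryos, beside 52.9% to 56.1% of all probe sets (7612 to 8081). The lower calls that stood in each of these fits were HSPA5, PDIA3, XBP1, ASNS, the second HSP90B1 probe set and 1 or both ATF4 probe sets. With the non-injected array alone set against the donor cells, both of trial 1, 10 passed, 3 higher and 7 lower, beside 68.7% of all (9892).

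For several members the 2 trials lay further apart than anti-DJ1 and IgG embryos did. Trials here are the repeat of the experiment with other embryos, and the EF1A ratios of the 2 trials did not overlap; the part of RNA quality in these differences was not tested. ATF4 was 2.18-fold higher in trial 2 than in trial 1 among anti-DJ1 embryos and 2.44-fold higher among IgG embryos, and the fitted difference was 1.20 ± 0.14 on the log2 scale (SE). Its dimmer probe set gave -1.25 ± 0.31, the reverse direction. PDIA6 differed by 0.53 ± 0.10, PDIA3 by 0.43 ± 0.12, DDIT3 by 0.62 ± 0.24 and CALR by -0.71 ± 0.19. HSPA5 differed by -0.02 ± 0.12, ASNS by -0.13 ± 0.12, PDIA4 by -0.09 ± 0.10 and XBP1 by 0.12 ± 0.31. The median over all probe sets tested was 0.14. As a measure of how much members varied among the 5 embryo arrays, the ratio of highest to lowest was 1.08-fold for HSPA5, 1.27-fold for PDIA4, 1.30-fold for HSP90B1, 1.51-fold for PDIA6, 1.65-fold for ASNS, 1.67-fold for PDIA3, 1.70-fold for DDIT3, 2.43-fold for ATF4, 2.60-fold for CALR and 3.24-fold for XBP1. The median of all tested probe sets was 1.87-fold.

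The other genes of the pathway were taken from 4 lists. In anti-DJ1 against IgG embryos none of the 75 tested list genes passed (limma), with medians from -0.06 (ER-associated degradation) to 0.02 (other ER folding genes), beside -0.01 over all probe sets. Of the genes with the lowest p-values, EDEM2, which helps send misfolded glycoproteins to degradation (0.33 ± 0.15), CEBPB, a partner of CHOP (0.59 ± 0.27), and EIF2AK2, another eIF2α kinase (0.29 ± 0.15), had positive differences. ATF6B, a relative of the sensor ATF6 (-0.44 ± 0.20), TMBIM6, an ER membrane protein that restrains IRE1 and cell death (-0.27 ± 0.14, with 0.48, 0.15 and -0.09 for its other probe sets), and the tRNA synthetase WARS1 (-0.35 ± 0.18) had negative ones. Their adjusted p-values lay between 0.853 and 0.896.

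In IgG against non-injected embryos 1 of the 75 passed (1.33%), near the 1.26% of all probe sets. This was TMBIM6, which was higher by 0.86 ± 0.18 (adjusted p = 0.0494), with 0.10, 0.30 and 2.14 for its other probe sets. Its call was lost without IgG replicate 1, where the difference was 0.28, without each of the other injected arrays, and in 6 other settings. VEGFA, the angiogenic growth factor and an ATF4 target, gave 1.62 ± 0.40 (adjusted p = 0.0714), and SELENOS, a selenoprotein of the degradation complex, 0.86 ± 0.23 (adjusted p = 0.0817). RNF5, a ubiquitin ligase at the ER, gave -0.995 ± 0.24 (adjusted p = 0.0688), PSPH, the last enzyme of serine synthesis, -0.49 ± 0.14 (adjusted p = 0.0992) and ERP29, a folding factor, -0.67 ± 0.19 (adjusted p = 0.102).

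In anti-DJ1 against non-injected embryos 2 of the 75 passed (2.67%, beside 1.92% of all). VEGFA was higher by 1.86 ± 0.40 (limma, adjusted p = 0.0427). Its signals were 86.4 and 69.1 in anti-DJ1, 89.1 and 46.7 in IgG and 23.0 in non-injected embryos, where it did not exceed the highest Tag control of 47.0. With that control in place of the non-injected signal, geometric mean VEGFA was 1.64-fold higher in anti-DJ1 and 1.37-fold higher in IgG embryos. These ratios carry no sampling error and set both trials against an array of trial 1. Between anti-DJ1 and IgG embryos VEGFA differed by 0.24 ± 0.30 (limma, adjusted p = 0.968). RNF5 was lower than in non-injected embryos (-1.23 ± 0.24, adjusted p = 0.0308). Its signals were 186 and 619 in anti-DJ1, 236 and 684 in IgG and 459 in non-injected embryos, so the trials differed more than the groups, and without the block the difference was -0.43 (adjusted p = 0.996). Without anti-DJ1 replicate 1 the RNF5 difference was 0.43. Without the block, the VEGFA difference was 1.57 (adjusted p = 0.996), and it ran from 1.41 to 1.72, with no call, as each injected array was left out. TMX3, a membrane disulfide isomerase (1.19 ± 0.31, adjusted p = 0.0669; other probe set 0.17), and ERO1A, an oxidase that recharges PDI enzymes (0.99 ± 0.27, adjusted p = 0.0824), came next among positive differences. QSOX1, a sulfhydryl oxidase (-0.88 ± 0.23, adjusted p = 0.0686; other tested probe set -2.63), and SLC1A5, a glutamine transporter (-0.59 ± 0.16, adjusted p = 0.0786), came next among negative ones.

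Against donor cells, 66 of the 75 passed (88.0%, beside 72.9% of all probe sets), and most tested genes of 3 lists were lower in embryos. The 75 are the brightest probe sets of named genes, while the 72.9% also counts dim and unnamed probe sets. With tests limited to the upper 40%, 83.4% of all probe sets passed (8002 of 9600), so the first 2 shares are not like for like. Of 26 other ER folding genes, 8 were higher, 16 lower and 2 did not pass, with a median difference of -1.53 beside -0.02 over all probe sets. FKBP14, a prolyl isomerase, was lower with -3.74 ± 0.24 (limma, adjusted p = 2.29e-08), CNPY2 with -3.49 ± 0.24, and TMX3 with -3.77 ± 0.27. The other probe sets gave -0.81 and -2.21 for FKBP14 and -1.62 for TMX3. CRELD2 was higher with 2.13 ± 0.16 (limma, adjusted p = 1.02e-07), MANF, a secreted ER stress factor, with 1.34 ± 0.13, and FKBP9 with 1.35 ± 0.14. CANX, the membrane lectin chaperone related to CALR, was lower (-1.99, with -0.82 to -3.17 for its 4 other tested probe sets). HYOU1, an exchange factor for HSPA5, was lower too (-1.21). DNAJB9, an HSPA5 cochaperone, was higher with its brightest probe set (0.56) and gave 1.14 and -0.40 with the others, so its direction was uncertain. DNAJB11, another, was lower (-1.60). Under both other scalings 10 genes of this list were higher and 15 lower.

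Of 10 tested sensors and transducers, 9 were lower in embryos, none was higher and EIF2B1 did not pass (0.24 ± 0.17), with a median of -2.09. TMBIM6 had the lowest adjusted p (-3.78 ± 0.16, limma, adjusted p = 6.38e-10), with -1.72, -2.46 and -2.32 for its other probe sets. EIF2S1, which encodes the eIF2α that PERK phosphorylates, differed by -2.50, EIF2B2, a subunit of its exchange factor, by -3.70 ± 0.29, and RTCB, the ligase that joins spliced XBP1 mRNA, by -3.16 ± 0.24 (-2.45 for its other probe set). The split was 1 higher and 5 lower after quantile normalization, and 1 and 7 with the common 75th percentile. Of the 24 sensors and transducers listed, 11 were on the array under a symbol. The genes of the sensors IRE1, ATF6 and PERK themselves were not among these, so no level of theirs is given.

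Of 25 tested ATF4 and CHOP targets and genes of the integrated stress response, 6 were higher, 16 lower and 3 did not pass, with a median of -1.77. PSPH had the largest positive difference of any list gene, 4.17 ± 0.12 (limma, adjusted p = 2.24e-11), while PSAT1, the enzyme before it, was lower (-2.49 ± 0.13). PHGDH, the first enzyme, was called lower (-4.39) but exceeded the Tag controls on only 2 of the 5 embryo arrays, so its embryo level is largely an upper limit. Aminoacyl-tRNA synthetases also split: GARS1 was lower (-3.40 ± 0.17), AARS1 (-2.99), MARS1 (-3.15), SARS1 (-2.07), WARS1 (-1.77) and NARS1 (-0.97) were lower too, EPRS1 was higher (1.32 ± 0.12), and LARS1 differed by 0.05. Other tested probe sets gave -2.39 and -0.87 for GARS1, -1.04 for AARS1, -1.66 for SARS1, -2.36 and -1.93 for WARS1 and 0.54 for EPRS1. ATF3 (-5.18) and CEBPB (-2.88), transcription factors induced downstream of ATF4, were lower, and CEBPG, a dimer partner of ATF4, was higher (1.75 ± 0.19). VEGFA was lower (-5.75 ± 0.35). MARS1 and VEGFA exceeded the Tag controls on 4 of the 5 embryo arrays, all but the non-injected one. Other scalings gave 5 higher and 15 lower, and 8 and 14.

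ER-associated degradation, which exports misfolded proteins to the proteasome, was split evenly. Of 14 tested genes 6 were higher, 5 lower and 3 did not pass, with a median of -0.08 that turned to 0.24 and 0.55 under the other scalings, though it stayed below the median of all probe sets. VCP, the ATPase that pulls proteins from the membrane, was 27.4-fold lower (-4.77 ± 0.25, limma, adjusted p = 4.21e-09; -3.79 for its other probe set). SELENOS was lower (-3.32 ± 0.20), as was the ubiquitin ligase RNF185 (-1.79 ± 0.32; -1.76 for its other probe set), and HERPUD2 (1.75 ± 0.13), EDEM2 (1.36 ± 0.17) and the conjugating enzyme UBE2G2 (1.37 ± 0.22) were higher. The 4 lists hold 138 genes, of which 82 were on the array under a symbol and 75 were tested.

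**Figure D4:**
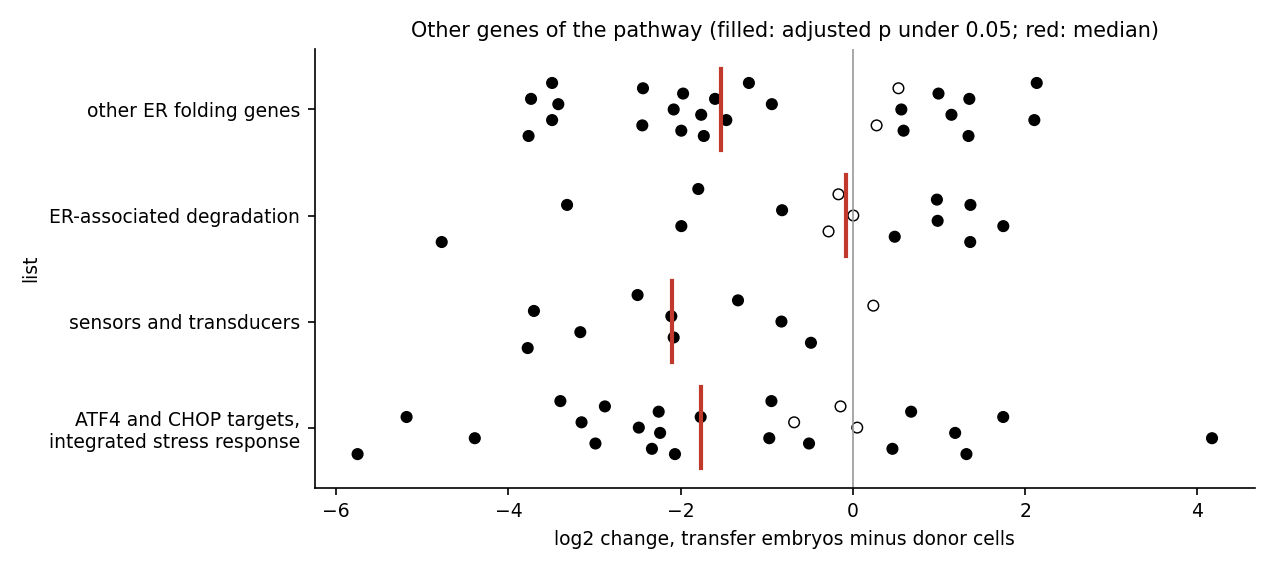
Log2 difference between transfer embryos and donor cells for the tested genes of the 4 pathway lists; each point is the brightest probe set of a gene, filled where the adjusted p was under 0.05, and the red bar is the list's median. Sensors and transducers lie on the negative side except EIF2B1 at 0.24, and ER-associated degradation spreads to both sides of its median of -0.08.

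Genes with the most similar profiles were sought by the root mean square distance between centred log2 profiles over the 6 arrays. For HSPA5 the nearest were HNRNPK (0.079), SCD (0.081), ATP1B1 (0.094), DCAF12 (0.095) and KIFAP3 (0.099). These shared a flat level among embryos and a log2 difference from donor cells between -2.84 and -3.13. For XBP1 the nearest was HES1 (0.139), at 71.5 and 137 in anti-DJ1, 63.9 and 51.9 in IgG and 40.7 in embryos without injection and 3324 in donor cells, followed by GUCY1B3 (0.244), GDE1 (0.252), SLC38A1 (0.331) and KLF10 (0.345). For ASNS the nearest was CSNK2A1 (0.056), at 376 and 371 in anti-DJ1, 433 and 364 in IgG and 239 in the non-injected pool and 904 in donor cells. MPDZ (0.101), SMC4 (0.103), PDCD6IP (0.116) and EIF2A (0.123) came next, each lowest in non-injected embryos and highest in donor cells.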

How the data were processed

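RNA of 6 samples was hybridised to Affymetrix Porcine Genome arrays, 1 per sample; per the labels' protocols it was amplified by a two-cycle method. The authors deposited linear intensities per probe set, made with MAS5 per the submitters' processing notes, while the version and target of its scaling were not given in the sources used. Signals were transformed as log2(signal + 4.57), the pseudocount being their 10th percentile, which understates changes of dim probe sets. Of 24123 probe sets, 124 controls were left out, and those in the upper 60% by mean log2 were tested (14399, mean signal above 39.6). Of the 23999 others than controls, 10069 had 1 gene symbol in the platform annotation, which can be old, 198 had several and 13732 had none; those were tested and not named.

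The test was limma (version 3.58.1 in R 4.3.3; lmFit, then eBayes with its trend option) on the 6 arrays, fitting group and trial. Tests were two-sided, and p-values were adjusted over all 14399 by Benjamini-Hochberg, with 0.05 as threshold. The fit leaves 1 residual degree of freedom, to which moderation added 10.7. It was also run on simulated data in which every array had the same spread. That run therefore cannot check whether the single arrays vary like the replicated ones. Errors are standard errors (SE) of the fit or SDs over arrays, and the number of arrays limits the precision. The design text pairs the anti-DJ1 and IgG arrays of a trial; their deviations from the group means had r = 0.588 over probe sets, though probe sets are no independent replicates. The trial was therefore kept as a block.

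A gene is represented by its brightest probe set. From each pathway list, up to 3 genes a direction with the smallest unadjusted p were named, over the lists together between embryo groups and per list against donor cells. Other list genes were named after their values were seen. For HSPA5, XBP1 and ASNS the 5 nearest profiles were named. The members and lists were chosen with earlier results of these data known. Alternatives changed the pseudocount, filter, scaling, block, trend and arrays. Gene positions and sequences were not used here.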

Additional observations from a re-analysis of the deposited data

How the results depend on the processing

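Fits that left out 1 array dropped the block, since group and trial together would leave 5 arrays no residual degree of freedom, and assume that a lone array varies like the others. The number of arrays and dim signals limit small differences. The cause of each change below was not tested.

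Of all probe sets, the 25th percentile as pseudocount, quantile normalization, a common 75th percentile and the 4 injected arrays alone each gave 1 call for anti-DJ1 against IgG embryos, and testing the upper 40% gave 43. For IgG against non-injected embryos, the 25th percentile gave 447 calls, no filter 48, the upper 40% 726, the 75th percentile 312, and a filter on the mean of linear signals, chosen after seeing the data, 67. For anti-DJ1 against non-injected embryos these gave 589, 71, 878, 470 and 148. No replicate block and no trend gave 0 in both. Leaving out 1 array gave 0 to 0 and 0 to 1. At an unadjusted p under 0.05 the fit as reported held 2493 and 2663. Of members, the 25th percentile gave 1 call for IgG and 2 for anti-DJ1 against non-injected embryos, the upper 40% 2 and 4, and the 75th percentile 1 and 1. Against donor cells, leaving out 1 array gave 6 to 7 member calls.

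Some values changed sign. Quantile normalization gave 0.0052 for HSP90B1 and 0.016 for PDIA6 between anti-DJ1 and IgG embryos, and 0.29 (second PDIA3 probe set) and -0.036 (PDIA6) against donor cells. The common 75th percentile gave 0.17 for that PDIA3 probe set, and -0.0060 for PDIA6 between anti-DJ1 and non-injected embryos. With no replicate block, ATF4 differed by 0.51 (IgG) and 0.50 (anti-DJ1) from non-injected embryos. With the non-injected array alone against donor cells, the second PDIA3 probe set gave 0.18, the second PDIA4 probe set -0.11 and DDIT3 -0.031.

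Fits that left out 1 array, and the block with it, turned the sign of other small differences. The part of the array and that of the block were not separated in these ranges. Between anti-DJ1 and IgG embryos the range was -0.12 to 0.0097 for ASNS, -0.66 to 0.63 for ATF4, -0.92 to 0.41 for its dimmer probe set, -0.56 to 0.48 for CALR, -0.41 to 0.30 for DDIT3, -0.16 to 0.12 for HSP90B1, -0.057 to 0.028 for HSPA5, -0.52 to 0.0021 for PDIA3, -0.54 to 0.050 for its second probe set, -0.56 to 1.12 and -0.062 to 0.35 for the 2 dimmer PDIA4 probe sets, and -0.32 to 0.27 for PDIA6. Among list genes it was -0.11 to 0.77 for EDEM2, -0.022 to 0.60 for EIF2AK2 and -0.57 to 0.027 for TMBIM6. Between IgG and non-injected embryos it was -0.13 to 1.15 for ATF4, -0.017 to 1.15 for its dimmer probe set, -0.0077 to 0.23 for the second HSP90B1 probe set, -0.41 to 0.00083 for the dimmest PDIA4 probe set and -0.95 to 0.57 for RNF5. Between anti-DJ1 and non-injected embryos it was -0.060 to 1.06 for ATF4, -0.36 to 0.98 for its dimmer probe set, -0.23 to 0.11 for the dimmest PDIA4 probe set, -1.28 to 0.43 for RNF5, -0.62 to 0.35 for SLC1A5 and -0.058 to 1.26 for TMX3. Against donor cells CALR ran from -0.14 to 0.21, beside 0.27 in the fit of all arrays with the block. XBP1 kept its sign in all 4 comparisons and each alternative run.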
